A study of Solanum lycopersicum with 120 samples.

Results

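In tomato (Solanum lycopersicum) seedlings, 126 of the 17161 genes in the normalised time-course table were high at ZT8 in every organ. ZT is the number of hours since lights on, so that ZT8 lies in the middle of the day. A gene was taken when its mean over 3 white-light WT libraries at ZT8 exceeded that at ZT2 by at least 1.5 on the log2 scale, after 1 CPM (counts scaled to the library size) was added to both means, in each of the 4 organs: cotyledons, first leaf, hypocotyl (the stem below the cotyledons) and epicotyl (the stem above them). These 126 genes, called members here, were therefore chosen on their measured ZT8 and ZT2 levels in 24WL, and those levels are given as a description with no test. Seedlings of the WT and of the slpif8a and slpifq mutants, all in the M82 background, grew for 12 days in long days of white light at 24 °C (24WL). They were then moved, 2 h after lights on, to white light supplemented with far-red at a red to far-red ratio of 0.6 (24FR, low R/FR, which imitates the shade of neighbouring plants), or were kept in 24WL. The slpif8a line lacks a functional SlPIF8a, and slpifq carries edits in SlPIF4, SlPIF7a, SlPIF7b and SlPIF8a. WT organs were collected in 24FR and 24WL after 3 h (ZT5), 6 h (ZT8) and 24 h (ZT2 of the next day), and slpif8a, slpifq and WT organs after 6 h, with 3 libraries a group, each from 4 pooled seedlings, and 120 libraries in all. The ZT2 plants were collected on the day after the ZT8 plants and were older. In 24FR they had spent 24 h instead of 6 h in that condition, including a night, since far-red was given only in the light period. Age, length of far-red and time of day therefore cannot be told apart.

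Plants anticipate the day with a circadian clock, a set of genes that repress each other in turn, and light adds to it through phytochromes, cryptochromes and the photoperiod receptors of the Adagio (ZEITLUPE) family. GIGANTEA, a clock protein that stabilises such receptors in Arabidopsis, is known for a peak late in the day. Low R/FR inactivates phytochrome B and frees PHYTOCHROME-INTERACTING FACTORs (PIFs), basic helix-loop-helix proteins that turn on growth genes. Chlorophyll synthesis, light-harvesting antenna proteins and thiamine synthesis are processes in which transcripts commonly follow the day.

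Libraries held 15905765 to 32898950 counts in genes in the time course and up to 33913236 in the genotype table, and a count of 3 amounted to 0.071 to 0.222 CPM. SlYUC9, an auxin synthesis gene of the leaf blade, reached 24.7 CPM in cotyledons and 8.99 CPM in first leaves, against at most 0.104 CPM in hypocotyls and 0.239 CPM in epicotyls, which fitted the organ labels, although some cotyledon libraries were at 0. The edited transcripts were still counted in the mutants (SlPIF8a in hypocotyls, median 25 CPM in slpifq, 25.2 CPM in slpif8a and 19.3 CPM in WT, and in cotyledons 179 CPM in slpifq, 171 CPM in slpif8a and 288 CPM in WT, 6 libraries each). SlPIF4 had a lower median in slpifq than in WT in all 4 organs, with 177 CPM in slpifq and 246 CPM in WT cotyledons. Edits need not lower a transcript, so their levels do not check the genotypes. Replicates were pools of separate seedlings, and p-values measure the spread between these pools.

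Replicates of 6 members stood far apart. Their 3 ZT8 libraries in 24WL differed by over 4-fold in at least 2 organs, and in all 4 organs for 4 of these genes, whereas the median of the largest fold between replicates over the 126 members was 1.52. Solyc01g108240 had 0.210, 37.5 and 4.31 CPM at ZT8 and 0, 0.174 and 0.443 CPM at ZT2 in the 3 24WL cotyledon libraries. Replicate 2 alone carried its ZT8 mean there. The Lea14-like protein Solyc01g095140, named for desiccation protectants, had 1.17, 5.51 and 42.01 CPM in 24WL epicotyls at ZT8, with all 3 far apart. The remaining ones were Solyc03g116890, Solyc04g054690, Solyc03g119250 and Solyc10g085420. Of the 126 members, 100 kept their place whichever replicate number was left out and 26 lost it at least once. With these 6 genes left out, no count of members called moved by over 1.5 times.

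The 126 members were a small part of the genes with this pattern in single organs. In cotyledons 932 genes passed the threshold, in first leaves 679, in hypocotyls 361 and in epicotyls 178, and the epicotyl thus set the size of the list more than the other organs. Of the 1106 genes past the threshold in at least 1 organ, 459 passed it in exactly 1, 376 in 2, 145 in 3 and 126 in 4. The members just inside the threshold were Solyc07g043050 with a smallest log2 difference of 1.505, Solyc12g006240 with 1.502 and Solyc02g080410 with 1.502, and just outside lay Solyc06g083470 with 1.497, Solyc10g079820 with 1.49 and Solyc05g010240 with 1.48, so nothing marked the edge of the list.

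Ranked by the smallest of the 4 organs' log2 differences, the list was led by Solyc02g071820 (4.44), a predicted receptor kinase with leucine-rich repeat and malectin domains, and Solyc08g006770 (4.32), a predicted 2-oxoglutarate-dependent oxygenase. Light-dependent protochlorophyllide oxidoreductase 1 (POR1, Solyc12g013710), which makes chlorophyllide in the light, came next with 4.02. Thiamine thiazole synthase (Solyc07g064160), which builds the thiazole part of vitamin B1, had 3.75, and Nudix hydrolase 8 (Solyc08g007240) had 3.69. A gene annotated only as a cytochrome (Solyc04g050620) had 3.49, GIGANTEA (Solyc04g071990) 3.34, SlPIF1b (Solyc06g008030) 3.31, Solyc04g079640 3.31 and a glycosyltransferase (Solyc12g057060) 3.30. These values chose the genes and are no finding.

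Descriptions were known for 51 of the 126 members and not for the other 75. They came from lists the study chose for far-red response, so the described members are no random sample. In the whole table, 3 of 11 described genes of the clock and photoperiod were members. Of 15 light-signalling genes 1 was a member, of 98 hormone genes 1, of 21 starch and sugar genes 3, of 137 transcription factors 2, of 47 transporters 3, of 48 cell wall genes 3, and of 26 genes of heat and protein folding 0. The members lay on all 12 chromosomes, with 4 (chromosome 9) to 17 (chromosome 3) on each. In 6 places the members were next to each other by identifier, among them 2 pairs of chlorophyll a-b binding proteins on chromosome 2 (Solyc02g070950 with Solyc02g070970, and Solyc02g070990 with Solyc02g071000). If such antenna genes are near-identical in sequence, which was not checked, their reads may have been shared or lost in counting. The same holds for the cytochrome-annotated Solyc04g050620 and Solyc04g050625. Their values are uncertain in that respect.

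The members together took up a visible share of the counts at ZT8. In 24FR the members summed to 43829 to 45533 CPM at ZT8 in cotyledons, against 3476 to 3567 CPM at ZT2. In the first leaf they summed to 39462 to 41622 CPM at ZT8 and 7154 to 7343 CPM at ZT2, in hypocotyls to 19272 to 20475 CPM at ZT8 and 2598 to 2837 CPM at ZT2, and in epicotyls to 9918 to 11470 CPM at ZT8 and 2512 to 2567 CPM at ZT2. Those sums were dominated by a few genes, since the median member had 60.2 CPM at ZT8 in 24FR cotyledons and the highest 11407 CPM. The bulk libraries hold whole organs, in which fewer cells of a type and less RNA per cell cannot be told apart.

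**Figure D1:**
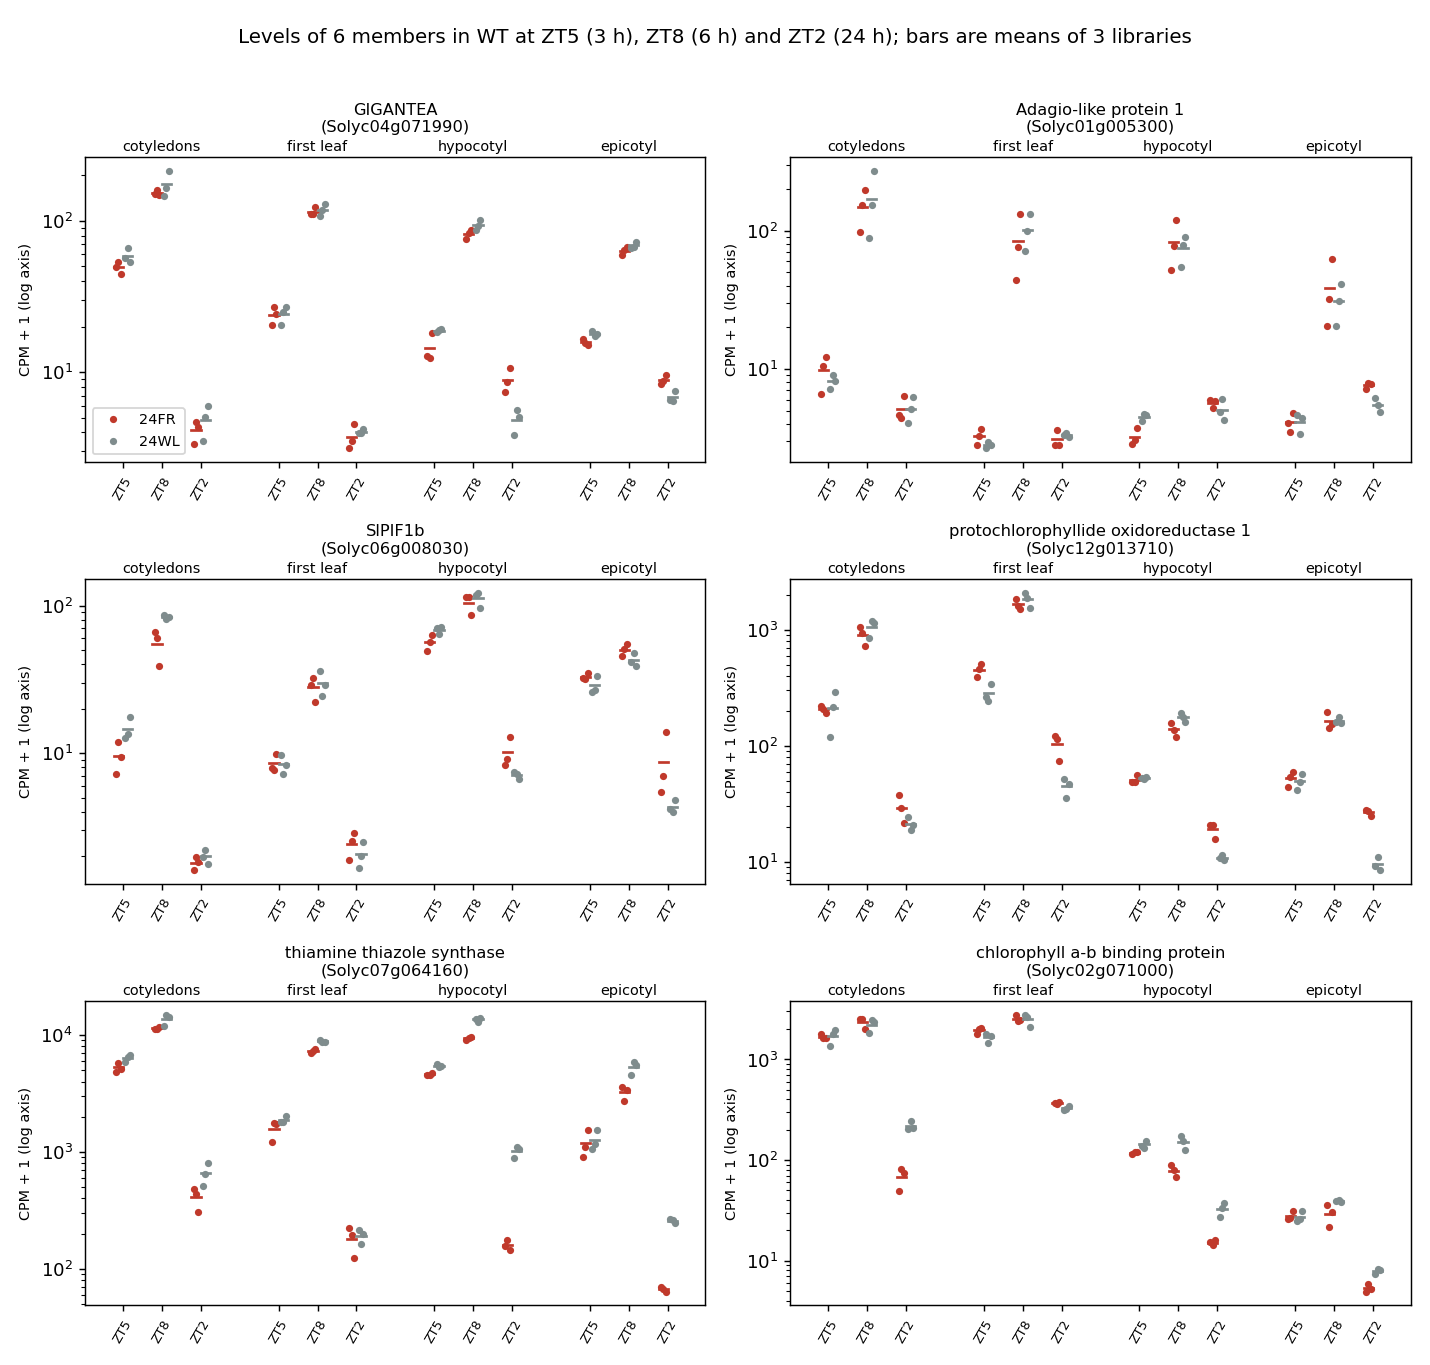
Levels of 6 members in WT organs (CPM + 1, log axis) at ZT5, ZT8 and ZT2, with 24FR in red left of 24WL in grey, 1 point per library and a bar at the mean of 3. All 6 were higher at ZT8 than at ZT2 in both lights, whereas at ZT5 Adagio-like protein 1 was near its ZT2 level and the antenna gene was near its ZT8 level.

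Whether the ZT8 over ZT2 difference was also seen under low R/FR was tested in the 24FR libraries, which the choice of members did not use. Higher levels at ZT8 were called (edgeR quasi-likelihood test, Benjamini-Hochberg adjusted p below 0.05 with a log2 fold change above 1) for 124 of 126 members in cotyledons, where 10.4% of all genes tested were called higher. In the first leaf the count was 124 (8.17% of all genes), in hypocotyls 118 (5.98%) and in epicotyls 119 (4.69%). No member was called lower in any organ. The median log2 fold change of the members was 3.43 in cotyledons, 3.01 in first leaves, 2.29 in hypocotyls and 2.21 in epicotyls, against medians between -0.01 and 0.02 over all genes tested. In 24WL, where the genes were chosen, the medians by the same fit were 3.70, 3.43, 2.56 and 2.48 in the same order of organs.

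GIGANTEA (Solyc04g071990), a clock gene, had 149, 159 and 148 CPM at ZT8 and 2.37, 3.70 and 3.36 CPM at ZT2 in 24FR cotyledons, and 58.6, 63.03 and 65.9 CPM at ZT8 and 7.36, 7.79 and 8.65 CPM at ZT2 in 24FR epicotyls. The 2 times did not overlap in either organ, and the ZT2 level was higher in epicotyls. Its log2 fold change was 5.59 ± 0.18 (SE, adjusted p = 6.59e-32) in cotyledons, 5.37 in first leaves, 3.36 in hypocotyls and 2.98 ± 0.15 (SE, adjusted p = 5.96e-23) in epicotyls. Adagio-like protein 1 (Solyc01g005300), a blue-light receptor that targets clock proteins for degradation in Arabidopsis, had 42.8, 75.5 and 132 CPM at ZT8 and 1.84, 2.65 and 1.81 CPM at ZT2 in 24FR first leaves. Every ZT8 library was far above every ZT2 library, although the ZT8 replicates also differed widely among themselves. The log2 fold change was 5.30 ± 0.43 (SE, adjusted p = 5.94e-16). Cold regulated protein 27 (Solyc04g078880), which represses clock genes in Arabidopsis under its COR27 name, had 4.36, 8.37 and 12.8 CPM at ZT8 and 0.454, 0.526 and 0.375 CPM at ZT2 in 24FR hypocotyls, with no overlap and a log2 fold change of 4.23 ± 0.56 (SE, adjusted p = 6.09e-09).

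The other 8 of the 11 described clock and photoperiod genes were not members, and they moved in both directions. CONSTANS 1 (Solyc02g089540), a photoperiod regulator of flowering, fell at ZT8 relative to ZT2 in 24FR in all 4 organs, with log2 fold changes of -3.59 in cotyledons, -3.35 in first leaves, -5.002 in hypocotyls and -2.84 in epicotyls (edgeR adjusted p of 9.05e-15 in epicotyls, the largest of the 4). CONSTANS-LIKE 7 (Solyc05g009310) rose, with 6.20 in cotyledons and 1.34 in epicotyls, and missed the list only through the epicotyl, where its rule value in 24WL was 1.44. LNK2 (Solyc01g068560), a clock coactivator in Arabidopsis, and CONSTANS-LIKE 9 (Solyc07g045180) fell in all 4 organs. ELF4-LIKE 4 (Solyc07g041340) rose in cotyledons (1.09) and the first leaf (1.19) and was at 0.01 in hypocotyls. Over the whole list of 11, members included, 5 rose and 4 fell in cotyledons, 5 rose and 5 fell in first leaves, and 4 rose and 3 fell in each stem organ, with medians of 0.23, 0.43, 0.01 and 0.18.

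Among genes of light signalling and chlorophyll, SlPIF1b (Solyc06g008030), the only PIF on the list, had 65.5, 59.7 and 37.8 CPM at ZT8 and 0.623, 0.971 and 0.825 CPM at ZT2 in 24FR cotyledons. The times were wide apart, with a log2 fold change of 6.07 ± 0.32 (SE, adjusted p = 5.26e-23), and the differences in first leaves, hypocotyl and epicotyl were 4.22, 3.50 and 2.67. Relatives of SlPIF1b in Arabidopsis repress seed germination and chlorophyll synthesis in the dark. POR1 (Solyc12g013710) had 1051, 939 and 728 CPM at ZT8 and 36.3, 27.9 and 20.7 CPM at ZT2 in 24FR cotyledons, and 156, 137 and 119 CPM at ZT8 and 19.96, 19.6 and 14.6 CPM at ZT2 in 24FR hypocotyls. No ZT2 library reached a ZT8 library, and its log2 fold change was 5.0 ± 0.23 (SE, adjusted p = 1.33e-25) in cotyledons and 2.93 ± 0.21 (SE, adjusted p = 2.30e-17) in hypocotyls.

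Chlorophyll a-b binding proteins, the antenna that collects light for the photosystems, made up 6 members, and all 6 were called higher at ZT8 than at ZT2 in 24FR in all 4 organs. In cotyledons their log2 fold changes ran from 3.55 (Solyc07g063600) to 6.66 (Solyc02g070950), and in hypocotyls from 1.49 (Solyc02g070970) to 2.93 (Solyc02g070950). Solyc02g070950 had 2554, 2607 and 2168 CPM at ZT8 and 21.3, 26.9 and 24.4 CPM at ZT2 in 24FR cotyledons. In 24FR first leaves it had 3711, 3340.4 and 3464 CPM at ZT8 and 519, 494 and 473 CPM at ZT2. The ZT8 levels of both leafy organs were of the same order, and the organs differed more at ZT2, where cotyledons were the lower. In 24FR hypocotyls the same gene had only 73.5, 71.8 and 61.6 CPM at ZT8 and 9.23, 10.8 and 7.20 CPM at ZT2, yet with no overlap.

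In metabolism, thiamine thiazole synthase (Solyc07g064160) was among the most abundant members, with 9123, 9401 and 9647 CPM at ZT8 and 155, 175 and 143 CPM at ZT2 in 24FR hypocotyls. Its log2 fold change of 5.90 ± 0.20 (SE, adjusted p = 3.27e-31) there stood beside 4.81 in cotyledons, 5.36 in first leaves and 5.62 in epicotyls. Nudix hydrolase 8 (Solyc08g007240), of a family that cleaves nucleotide derivatives, had 49.3, 51.02 and 44.1 CPM at ZT8 and 0.374, 0.303 and 0.190 CPM at ZT2 in 24FR cotyledons, and its log2 fold change was 7.35 ± 0.50 (SE, adjusted p = 5.89e-19). All ZT8 libraries of both genes lay above all ZT2 libraries. The predicted oxygenase Solyc08g006770 had 134, 143 and 148 CPM at ZT8 and 1.53, 1.35 and 1.42 CPM at ZT2 in 24FR first leaves, with a log2 fold change of 6.63 ± 0.24 (SE, adjusted p = 5.01e-30), and its neighbour by identifier Solyc08g006765, a predicted N-acetyltransferase, had one of 7.31 in cotyledons, 7.51 in first leaves, 7.08 in hypocotyls and 5.52 in epicotyls.

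Carbon, transport and cell wall genes took part too. Sugar transporter protein 16 (Solyc03g093410) had 18.3, 55.3 and 81.6 CPM at ZT8 and 0.249, 0.243 and 0.190 CPM at ZT2 in 24FR cotyledons, and 8.62, 24.2 and 38.7 CPM at ZT8 and 0, 0 and 0 CPM at ZT2 in 24FR first leaves. It was almost or fully missing at ZT2. Sugar transporter protein 2 (Solyc09g075820) rose by 1.70 in cotyledons to 2.65 in hypocotyls on the log2 scale, and an amino acid transporter (Solyc07g066010) by 2.85 in epicotyls to 5.73 in first leaves. Of the wall genes, a pectinesterase (Solyc06g009190), which demethylates pectin, rose by 3.38 ± 0.24 (SE, adjusted p = 6.99e-18) in cotyledons and only 1.05 ± 0.18 (SE, adjusted p = 1.61e-06) in epicotyls, where it was under the fold limit without the 24FR ZT8 replicate 1 (0.99) or 3 (0.999). A cellulose synthase (Solyc03g005450) rose in 3 organs and was not called in hypocotyls (0.92 ± 0.22, SE, adjusted p = 3.10e-04). The invertase or pectin methylesterase inhibitor Solyc03g083770 rose in all 4 organs, by 2.37 to 2.96. A bHLH transcription factor (bHLH094, Solyc10g008270) had 21.1, 35.6 and 51.9 CPM at ZT8 and 0, 0.0607 and 0 CPM at ZT2 in 24FR cotyledons. It was nearly off at ZT2 in every cotyledon library of 24FR.

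Few members failed the test in 24FR. Solyc01g108240, with replicates far apart, was not called in any organ (log2 fold changes of 2.78, 1.81, 0.45 and -0.14 in cotyledons, first leaf, hypocotyl and epicotyl). The S-like ribonuclease Solyc07g006570, of a family tied to phosphate supply and senescence, had 1.25, 1.04 and 1.04 CPM at ZT8 and 0.580, 0.325 and 0.880 CPM at ZT2 in 24FR first leaves, against 13.9, 6.35 and 25.3 CPM at ZT8 and 1.21, 0.863 and 2.15 CPM at ZT2 in 24WL first leaves. The 24FR libraries at ZT8 stood close to those at ZT2, and the call was missed (0.90 ± 0.78, SE, adjusted p = 0.32). Solyc01g109660 had 1234, 1242 and 1429 CPM at ZT8 and 874, 888 and 879.7 CPM at ZT2 in 24FR epicotyls, a difference with no overlap (0.56 ± 0.09, SE, adjusted p = 1.59e-06) that stayed under the fold limit. The ZT2 level in 24WL epicotyls was 463, 480.1 and 462 CPM. Solyc04g050625 was the only member besides Solyc01g108240 with a fitted fall, of -0.64 in hypocotyls (adjusted p = 0.224, edgeR), and was not called there.

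**Figure D2:**
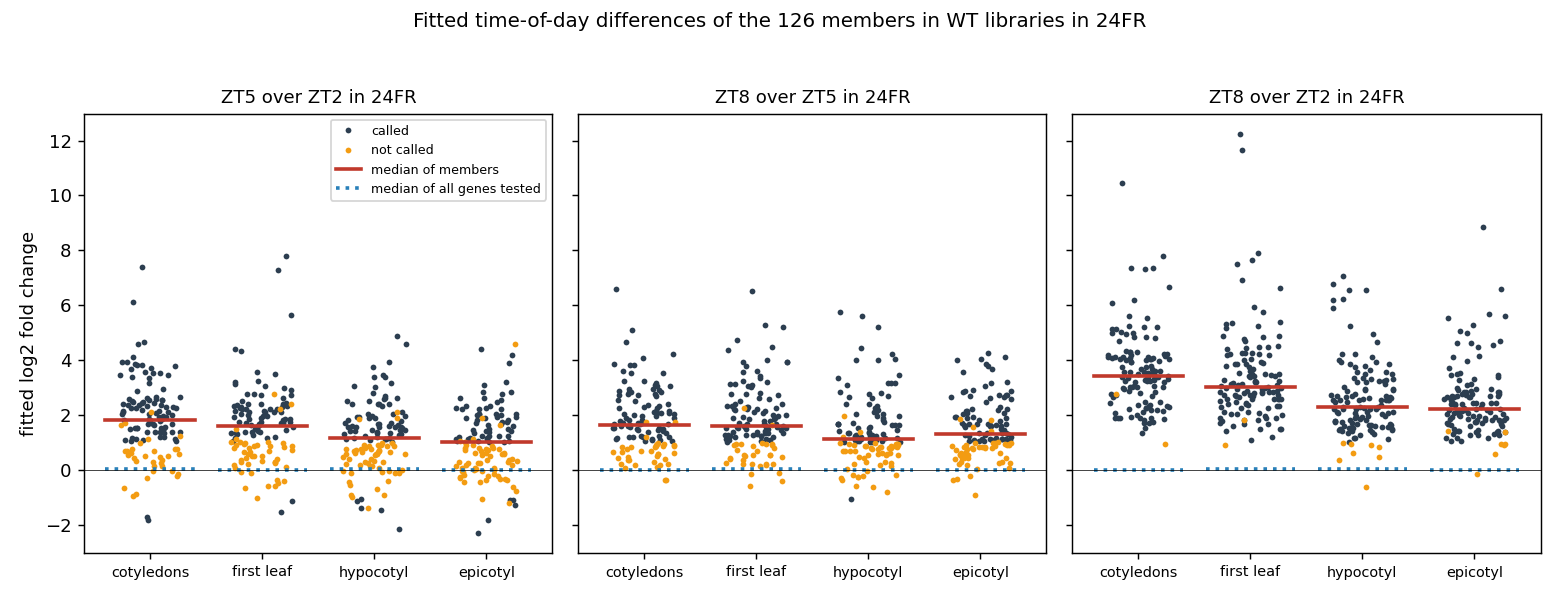
Fitted log2 fold changes of the 126 members in WT 24FR libraries for ZT5 over ZT2, ZT8 over ZT5 and ZT8 over ZT2, 1 point per member and organ, dark where called and orange where not, with the members' median in red and that of all genes in dotted blue. The ZT8 over ZT2 medians run from 2.21 (epicotyl) to 3.43 (cotyledons), and those of the other 2 contrasts are smaller in every organ.

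The ZT5 libraries, which the choice did not use, gave a further time. The ZT2 plants were collected on the next day, after 24 h in 24FR, including a night, against 3 h at ZT5. Contrasts with ZT2 are therefore no course within a single day. In 24FR, ZT5 was called higher than ZT2 for 91 members in cotyledons (5.85% of all genes), 76 in first leaves (3.59%), 66 in hypocotyls (3.88%) and 59 in epicotyls (3.33%). ZT5 was called lower than ZT2 for 2 members in cotyledons (3.30% of all genes), 2 in first leaves (3.11%), 5 in hypocotyls (4.41%) and 5 in epicotyls (2.59%), shares close to the background. The median log2 fold changes of ZT5 over ZT2 were 1.81, 1.61, 1.17 and 1.00 in cotyledons, first leaf, hypocotyl and epicotyl, while the median over all genes stayed between -0.02 and 0.02. ZT8 was called higher than ZT5 for 89 (4.47% of all genes), 93 (3.54%), 71 (2.90%) and 76 (1.88%) members in these organs, with medians of 1.64, 1.58, 1.13 and 1.29. In every organ but the epicotyl most members were called higher at ZT5 than at ZT2, and in all 4 organs most were called higher at ZT8 than at ZT5. These 3 contrasts share their libraries and are not independent of each other.

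Placed on the way between the ZT2 level (0%) and the ZT8 level (100%) on the log2 scale, for members with a ZT8 over ZT2 difference of at least 1, the ZT5 level lay at a median of 51.2% in 24FR cotyledons, 42.2% in first leaves, 47.4% in hypocotyls and 38.0% in epicotyls (123, 122, 116 and 118 members). In 24WL the medians were 55.4%, 43.9%, 51.3% and 42.9% (126 members each), a description, since the ends of that scale chose the genes. The quartiles in 24FR epicotyls were 9.41% and 58.3%, so the members spread widely. In 24FR cotyledons 18 members lay at 75% or more at ZT5 and 29 were under 25%, and in 24FR epicotyls these counts were 17 and 42.

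**Figure D3:**
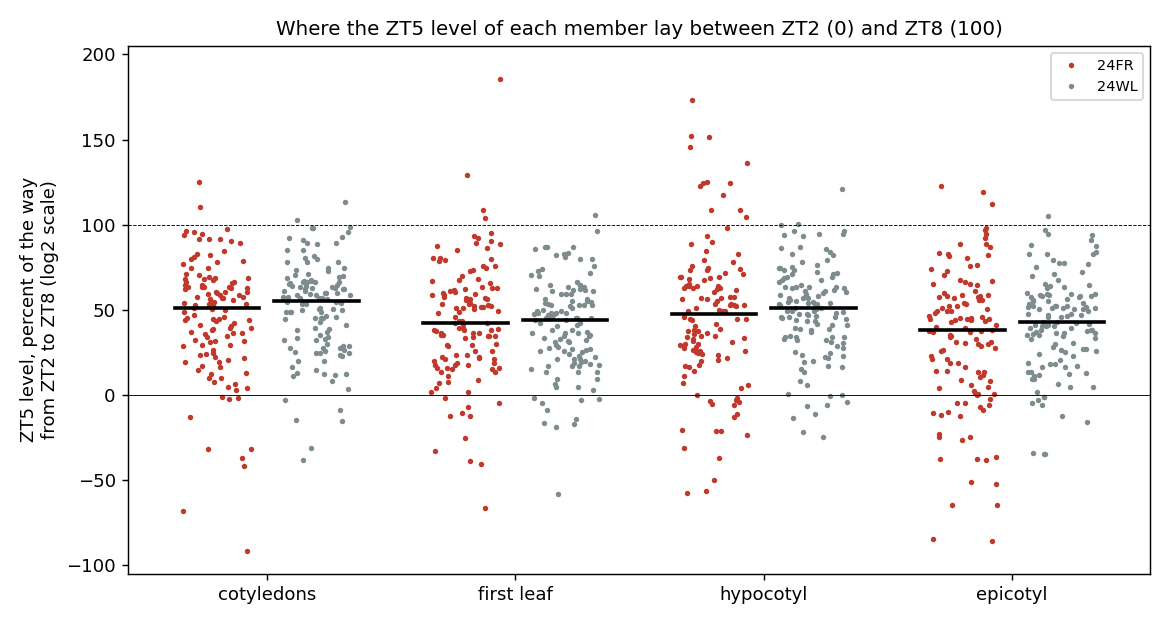
ZT5 level of each member as a percent of the way from its ZT2 to its ZT8 level (log2 scale) by organ, 24FR in red left of 24WL in grey, with the median as a black bar, and 2 points outside the axis of -100 to 200 not drawn. Medians lie between 38.0% (24FR epicotyls) and 55.4% (24WL cotyledons), with members on both sides of 0.

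The antenna genes were early members, at a median over organs of 91.5% (Solyc07g063600) to 105.6% (Solyc06g069730) of the way in 24FR. The undescribed Solyc03g005780 stood at 98.9%. The S-like ribonuclease Solyc07g006570 had a median of 108.5% in 24FR but of 43.2% in 24WL. Its ZT8 and ZT2 levels in 24FR first leaves were close together, which makes its percent unstable there (185.6%). It was at 69.0% in 24FR hypocotyls and is not counted as early. Solyc02g070950 had 2805, 3312 and 3065 CPM at ZT5 in 24FR first leaves, close to its ZT8 libraries, with a ZT8 over ZT5 difference of 0.20 ± 0.14 (SE, adjusted p = 0.254). In the hypocotyl Solyc02g070970 was even lower at ZT8, with 54.6, 52.02 and 42.7 CPM at ZT8 and 102, 109 and 104 CPM at ZT5. It was the only member called lower at ZT8 than at ZT5 in any organ (-1.07 ± 0.15, SE, adjusted p = 5.14e-08, with 4.04% of all genes called lower there), and that call was lost without ZT8 replicate 3 (-0.97). Stem-specific protein TSJT1 (Solyc03g006490) was at 91.1%, the CONSTANS-like 5-like zinc finger protein (Solyc07g006630) at 82.5%, MAP kinase kinase kinase 20 (Solyc02g090430) at 80.1% and thiamine thiazole synthase (Solyc07g064160) at 75.5%. SlPIF1b (Solyc06g008030) at 62.5%, POR1 (Solyc12g013710) at 51.4% and GIGANTEA (Solyc04g071990) at 41.5% lay in the middle, and GIGANTEA had 48.4, 52.8 and 43.4 CPM at ZT5 in 24FR cotyledons.

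By the median over organs in 24FR, the late members stood at ZT5 little above their ZT2 level or below it. Nudix hydrolase 8 (Solyc08g007240) was at 15.3%, bHLH094 (Solyc10g008270) at 14.4%, cold regulated protein 27 (Solyc04g078880) at -9.2%, Adagio-like protein 1 (Solyc01g005300) at -9.8% and the inhibitor Solyc03g083770 at -54.4%, a negative percent being a ZT5 level under that of ZT2. The organs were not alike for each, since bHLH094 was at 45.6% in 24FR cotyledons and 6.0% in 24FR hypocotyls, and Nudix hydrolase 8 at 30.3% in 24FR epicotyls and 3.9% in 24FR cotyledons. Adagio-like protein 1 had 1.84, 2.27 and 2.68 CPM at ZT5 and 42.8, 75.5 and 132 CPM at ZT8 in 24FR first leaves. Nearly all of the increase in that organ fell between ZT5 and ZT8, a log2 fold change of 5.19 ± 0.42 (SE, adjusted p = 4.66e-15) there and 5.20 in hypocotyls. Its ZT5 over ZT2 falls of -1.08 in hypocotyls (adjusted p = 0.0372) and -1.09 in epicotyls (adjusted p = 0.0221) and its rise in cotyledons (1.08, adjusted p = 0.0337) were each lost when single 24FR replicates were left out, for example without ZT5 replicate 1 in hypocotyls (-0.96), ZT5 replicate 2 in epicotyls (-0.94) or ZT5 replicate 3 in cotyledons (0.86). Solyc03g083770 had 2.39, 3.48 and 3.19 CPM at ZT5, 45.9, 48.8 and 73.3 CPM at ZT8 and 11.7, 8.31 and 12.4 CPM at ZT2 in 24FR cotyledons. In 24WL its median percent over organs was -10.3%, so ZT5 lay closer to ZT2 there. In 24FR ZT5 was its lowest time, with a ZT5 over ZT2 difference of -1.84 ± 0.38 (SE, adjusted p = 8.13e-05) in cotyledons, -1.46 in hypocotyls and -1.29 in epicotyls. Of the undescribed members, Solyc06g006000 was lower at ZT5 in first leaves (-1.55), hypocotyl (-2.16) and epicotyl (-2.30). Solyc12g006240 was lower in the same organs, at -1.14, -1.40 and -1.10, with the call in first leaves lost without ZT5 replicate 1 (-0.93) and that in epicotyls lost without ZT5 replicate 1 (-0.99). The remaining falls were those of Solyc01g108910 in cotyledons (-1.72), Solyc02g076690 in hypocotyls (-1.15) and cold regulated protein 27 in epicotyls (-1.82, lost without ZT5 replicate 1 or 2 or ZT2 replicate 1 or 3 (-1.96 to -1.42)).

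The size of the ZT8 over ZT2 difference in 24FR varied between organs, tested as a difference of differences (edgeR quasi-likelihood, adjusted p under 0.05). The fit took the organ libraries as independent, although organs of a replicate may come from the same seedlings. Between first leaf and cotyledons, 13 members had a larger log2 difference in first leaves (8.23% of all genes) and 24 a smaller one (7.88%). The differences of all 6 antenna genes were smaller in first leaves, at -1.66 (Solyc07g063600) to -3.83 ± 0.20 (SE, adjusted p = 1.37e-20) for Solyc02g070950. In 24WL their rule values were also smaller in first leaves, but by less. They were 2.17 in cotyledons and 1.86 in first leaves for Solyc07g063600, and 3.73 and 2.39 for Solyc02g070950. Whether the organ gap differed between the lights was not tested. In 24FR, SlPIF1b (Solyc06g008030) was also smaller in first leaves, at -1.84 ± 0.51 (SE, adjusted p = 0.00876). The oxygenase Solyc08g006770 (1.78 ± 0.35, SE, adjusted p = 2.49e-04) and the amino acid transporter Solyc07g066010 (1.67 ± 0.21, SE, adjusted p = 1.02e-07) were larger in first leaves. Members thus differed between the leafy organs in both directions, with the antenna genes all on 1 side.

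Between epicotyl and hypocotyl, 16 members had a larger log2 difference in epicotyls (18.2% of all genes) and 26 a smaller one (15.9%), shares not far from the background. The auxin-repressed protein Solyc02g077880, of a family linked to dormancy and arrested growth in other species, had 233, 203 and 153 CPM at ZT8 and 2.32, 1.70 and 2.11 CPM at ZT2 in 24FR epicotyls. In 24FR hypocotyls it had 339, 314 and 259.5 CPM at ZT8 and 38.1, 25.9 and 32.8 CPM at ZT2. The epicotyl stood lower at both times, and by far more at ZT2, which gave a difference of differences of 3.35 ± 0.37 (SE, adjusted p = 3.66e-10). TSJT1 (Solyc03g006490) had 194, 142 and 82.1 CPM at ZT8 and 8.17, 5.19 and 10.7 CPM at ZT2 in 24FR epicotyls, against 31.1, 24.4 and 35.99 CPM at ZT8 and 7.56, 6.03 and 21.7 CPM at ZT2 in 24FR hypocotyls, a difference of 2.76 ± 0.64 (SE, adjusted p = 5.07e-04). In 24WL the rule values of TSJT1 were alike, at 2.08 in epicotyls and 2.03 in hypocotyls, so its gap was seen in 24FR only. For Solyc02g077880 they were 4.78 and 3.18 in the same order. In 24FR a light-regulated protein (Solyc09g092110) was also larger in epicotyls (2.86 ± 0.42, SE, adjusted p = 3.27e-07). The receptor kinase Solyc02g071820 (-2.23 ± 0.68, SE, adjusted p = 0.00812), Solyc01g111350 (-3.10 ± 0.50, SE, adjusted p = 1.98e-06) and Adagio-like protein 1 (Solyc01g005300, -1.63 ± 0.49, SE, adjusted p = 0.00771) were smaller there.

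The far-red response at 3 h (ZT5) in WT used none of the libraries that chose the members. Only a handful were called. In the hypocotyl 2 rose (0.710% of all genes) and 6 fell (0.693%), and in epicotyls 1 rose (0.429%) and 3 fell (0.286%). In cotyledons 0 rose (0.819%) and 1 fell (0.464%), and in first leaves 1 rose (0.492%) and 0 fell (0.212%). At an unadjusted p under 0.05 the counts in either direction were 32 in cotyledons and 21 in first leaves, and DESeq2 called 2 and 1. The share of all genes at an unadjusted p was not counted, here or in the comparisons below. Such counts are therefore no result about the members. The cotyledon count of 1 became 6 without the 24WL replicate 1, 3 without the 24FR replicate 2 and 2 without the 24WL replicate 2, the leaf count of 1 became 2 without the 24WL replicate 1 or 2 or the 24FR replicate 3, and the hypocotyl count of 8 became 5 without the 24FR replicate 2.

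Small falls were common although few passed the test. For 24FR over 24WL at 3 h the fitted log2 fold change was under 0 in 92 members in cotyledons, 67 in first leaves, 94 in hypocotyls and 98 in epicotyls, with medians of -0.16, -0.01, -0.24 and -0.19, against medians between -0.02 and 0.02 over all genes. All 3 24FR libraries lay below all 3 24WL libraries for 50 members in hypocotyls (14.1% of all genes) and 42 in epicotyls (11.2%). In cotyledons this held for 24 members (7.59%) and in first leaves for 24 (13.0%). The shift was thus seen in hypocotyls, epicotyl and cotyledons and not in the median of the first leaf. An organ difference of the response at 3 h was called for 0 members between first leaf and cotyledons (0.160% of all genes, 7 members at an unadjusted p under 0.05) and for 0 between epicotyl and hypocotyl (0.172%, 9 members at an unadjusted p under 0.05), and for 0 and 0 by DESeq2. In the libraries at 6 h in WT, whose 24WL side chose the members, the medians were -0.18, -0.15, -0.31 and -0.21, and at 24 h 0.03, 0.05, 0.07 and 0.04 in the same order of organs, both as a description.

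**Figure D4:**
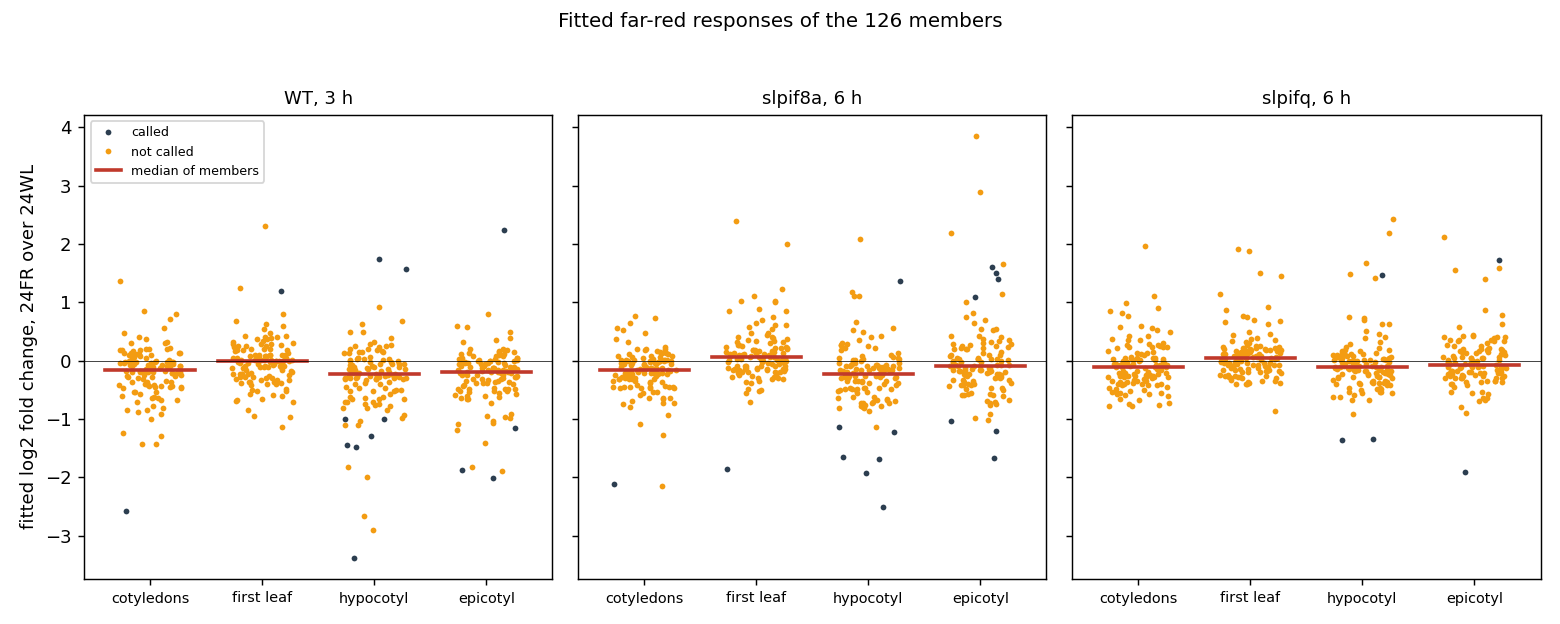
Fitted log2 fold changes of 24FR over 24WL for the 126 members at 3 h in WT and at 6 h in slpif8a and slpifq, 1 point per member and organ, dark where called and orange where not, with the members' median in red. Most points lie within 1 of 0 in all 3 panels, and the hypocotyl medians are -0.24, -0.23 and -0.11.

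The clearest rise was that of the CONSTANS-like 5-like zinc finger protein (Solyc07g006630), of a family that links light to flowering and growth. At 3 h it had 129, 144 and 142 CPM in 24FR epicotyls, against 26.2, 28.8 and 32.3 CPM in 24WL epicotyls. In hypocotyls it had 155, 145 and 135 CPM in 24FR and 44.1, 38.4 and 47.1 CPM in 24WL. The lights did not overlap in either organ, and the log2 fold changes were 2.25 ± 0.12 (SE, adjusted p = 3.37e-20) in epicotyls, 1.75 ± 0.12 (SE, adjusted p = 1.96e-16) in hypocotyls and 1.20 ± 0.12 (SE, adjusted p = 5.51e-11) in first leaves. In cotyledons it was 0.71 ± 0.12 (SE, adjusted p = 1.72e-05), under the fold limit. The other rise was that of the inhibitor Solyc03g083770 in hypocotyls, with 21.9, 23.01 and 26.7 CPM in 24FR and 8.70, 7.68 and 7.82 CPM in 24WL, again without overlap (1.57 ± 0.30, SE, adjusted p = 1.76e-04).

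Falls centred on genes of low level. Solyc04g050625, annotated as a cytochrome, had 0.445, 0.174 and 0.211 CPM in 24FR hypocotyls and 3.02, 2.30 and 3.61 CPM in 24WL hypocotyls at 3 h. The 24FR libraries were close to the level of 3 counts, far below those of 24WL. Its log2 fold change was -3.38 ± 0.39 (SE, adjusted p = 2.91e-09), with -2.58 in cotyledons, -2.01 in epicotyls and -1.14 (adjusted p = 0.127, not called) in first leaves. The other cytochrome-annotated member, Solyc04g050620, fell in hypocotyls (-1.29 ± 0.21, SE, adjusted p = 1.05e-05). The PDDEXK-like protein Solyc03g006410, named for a nuclease-type fold, had 3.53, 3.61 and 3.52 CPM in 24FR hypocotyls and 9.81, 9.002 and 10.4 CPM in 24WL hypocotyls, with -1.45 ± 0.31 (SE, adjusted p = 8.03e-04) there and -1.88 ± 0.40 (SE, adjusted p = 0.00179) in epicotyls. Inositol oxygenase (Solyc12g008650), which opens the inositol ring toward wall sugars, fell in hypocotyls (-1.004 ± 0.29, SE, adjusted p = 0.0163), a call lost without 24WL replicate 3 or 24FR replicate 1 or 2 (-1.002 to -0.88). Solyc02g080410 fell there too (-1.01 ± 0.21, SE, adjusted p = 6.21e-04) and was lost without 24WL replicate 3 or 24FR replicate 1 or 2 (-0.97 to -0.83). Solyc01g111350 fell in hypocotyls (-1.475 ± 0.35, SE, adjusted p = 0.00366), lost without 24FR replicate 2 (-1.21), and in epicotyls (-1.15 ± 0.34, SE, adjusted p = 0.0466), lost without 24WL replicate 1, 2 or 3 or 24FR replicate 1, 2 or 3 (-1.28 to -1.02). The calls of the falls near the fold limit were thus lost when single libraries were left out. GIGANTEA (Solyc04g071990), POR1 (Solyc12g013710), thiamine thiazole synthase (Solyc07g064160), SlPIF1b (Solyc06g008030) and the antenna genes (such as Solyc02g071000) were not called at 3 h in any organ. In the hypocotyl their values were -0.41, -0.06, -0.24, -0.28 and, for Solyc02g071000, -0.27.

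In the mutants the far-red response at 6 h (ZT8) was likewise called for few members. In slpif8a it was called in either direction for 1 member in cotyledons (2.14% of all genes), 1 in first leaves (0.876%), 7 in hypocotyls (2.23%) and 7 in epicotyls (2.10%), with medians of -0.17, 0.06, -0.23 and -0.09. In slpifq the counts were 0 (2.21% of all genes), 0 (0.275%), 3 (1.13%) and 2 (0.475%) in cotyledons, first leaf, hypocotyl and epicotyl, with medians of -0.11, 0.04, -0.11 and -0.07. At an unadjusted p under 0.05, 37 members in slpifq cotyledons and 11 in slpifq first leaves passed, with the share of all genes not counted. DESeq2 called 0 in both. Single replicates moved small counts: slpif8a cotyledons reached 3 without the 24FR replicate 3 and 2 without the 24WL replicate 1 or 3, slpif8a epicotyls 4 without the 24FR replicate 3, and slpifq cotyledons 5 without the 24FR replicate 1 and 2 without the 24WL replicate 3. In slpif8a hypocotyls and epicotyls the share of members called was above that of all genes. The slpifq counts of 3 and 2 in these organs were too few to be set apart from the share of all genes. The same holds for the counts of 0 and 1 in cotyledons and first leaves of both mutants. These small counts are no result about the members. Whether the response differed between genotypes was not tested.

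Solyc07g006630 rose in the hypocotyls and epicotyls of both mutants too, but was not called higher in their cotyledons or first leaves. In slpif8a hypocotyls it had 194, 184 and 180.1 CPM in 24FR and 87.3, 68.2 and 60.2 CPM in 24WL (1.37 ± 0.14, SE, adjusted p = 8.41e-11). In slpifq hypocotyls it had 212, 171 and 235 CPM in 24FR and 75.6, 82.1 and 64.2 CPM in 24WL (1.48 ± 0.14, SE, adjusted p = 3.38e-11). The lights were apart in both mutants, and the epicotyl gave 1.61 in slpif8a and 1.73 in slpifq. In slpif8a epicotyls a glutathione S-transferase-like protein (Solyc09g011590), of a detoxifying family, rose by 1.501 ± 0.19 (SE, adjusted p = 3.68e-08), and Solyc08g006765 by 1.09 ± 0.31 (SE, adjusted p = 0.00857), which was lost without 24FR replicate 3 (0.85). Solyc03g083770 rose there as well (1.41 ± 0.42, SE, adjusted p = 0.0123), a call lost without the 24FR replicate 3 (0.96) or the 24WL replicate 1 (1.20). Falls in slpif8a epicotyls were those of Solyc04g050620 (-1.21), Solyc04g050625 and the light-regulated protein Solyc09g092110 (-1.03, lost without 24WL replicate 3 or 24FR replicate 3 (-0.97 to -0.95)). The slpif8a falls were led by Solyc04g050625, in all 4 organs, from -1.67 in epicotyls to -2.52 in hypocotyls, and included in hypocotyls the light-regulated protein Solyc09g092110 (-1.93 ± 0.34, SE, adjusted p = 4.60e-05), Solyc07g054430 (-1.69), Solyc03g006410 (-1.65), TSJT1 (Solyc03g006490, -1.15, lost without 24FR replicate 3 (-1.10)) and Nudix hydrolase 8 (Solyc08g007240, -1.22, a call lost without the 24FR replicate 3 at -1.01). In slpifq, Solyc04g050625 fell in hypocotyls (-1.37 ± 0.30, SE, adjusted p = 0.00257, lost without the 24FR replicate 2 at -1.05) and in epicotyls (-1.91), and Solyc07g054430, a predicted folate-binding transferase, fell in hypocotyls (-1.35 ± 0.32, SE, adjusted p = 0.00682).

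Under 24FR at 6 h the mutants were set against WT. In slpif8a 0 members were called in cotyledons (0.355% of all genes), 0 in first leaves (0.155%), 0 in hypocotyls (0.515%) and 0 in epicotyls (0.401%). At an unadjusted p under 0.05 the counts were 13, 5, 10 and 15 in these organs, with the share of all genes not counted. DESeq2 called 0 in each, while edgeR called 1 in cotyledons or in epicotyls without the slpif8a replicate 1 of that organ. In slpifq 4 members were called in cotyledons (2.00% of all genes), 1 in first leaves (0.664%), 6 in hypocotyls (2.08%) and 5 in epicotyls (1.03%), mostly higher in slpifq. The cotyledon count was 1 without WT replicate 1 or 2 and 2 without slpifq replicate 3, the hypocotyl count 3 without WT replicate 3, and the epicotyl count 2 without WT replicate 3 or slpifq replicate 1 and 3 without WT replicate 1 or 2 or slpifq replicate 3. The medians over members stayed between 0.02 and 0.12 in slpifq.

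Solyc04g050625 had 2.65, 1.62 and 5.07 CPM in slpifq hypocotyls in 24FR, against 0.356, 0.303 and 0.448 CPM in WT hypocotyls. Every slpifq library was above every WT library, and the log2 fold change was 3.04 ± 0.39 (SE, adjusted p = 8.50e-08), with 2.88 in cotyledons and 1.19 in epicotyls, the call in epicotyls being lost without WT replicate 1, 2 or 3 or slpifq replicate 1 (1.05 to 1.25). The PDDEXK-like protein Solyc03g006410 had 13.1, 7.91 and 15.7 CPM in slpifq hypocotyls and 3.35, 2.16 and 1.999 CPM in WT hypocotyls (2.29 ± 0.38, SE, adjusted p = 1.85e-05). In the epicotyl its call (1.44 ± 0.43, SE, adjusted p = 0.0277) was lost without WT replicate 2 (1.28) or 3 (1.44) or slpifq replicate 1 (1.23) or 3 (1.468). Solyc03g083770 went the other way, with 111, 167 and 246 CPM in slpifq hypocotyls and 298, 412 and 534 CPM in WT hypocotyls (-1.25 ± 0.41, SE, adjusted p = 0.0347). The genotypes did not overlap, but the call was lost without any of 4 single libraries (WT replicate 2 at -1.25 or 3 at -1.03, slpifq replicate 1 at -1.01 or 2 at -1.22), as was that in epicotyls (-1.70 ± 0.42, SE, adjusted p = 0.00648) without WT replicate 3 (-1.29) or slpifq replicate 1 (-1.465).

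The S-like ribonuclease Solyc07g006570 had 8.49, 25.8 and 14.2 CPM in slpifq first leaves and 1.38, 1.14 and 1.14 CPM in WT first leaves in 24FR, all slpifq libraries being higher (3.74 ± 0.76, SE, adjusted p = 0.0017). In cotyledons its difference (2.24 ± 0.77, SE, adjusted p = 0.0447) was lost without any single library of the 6, at 2.004 (slpifq replicate 1) to 2.39 (WT replicate 3). In slpifq cotyledons inositol oxygenase (Solyc12g008650) was higher by 1.21 ± 0.39 (SE, adjusted p = 0.0318), lost without WT replicate 1, 2 or 3 or slpifq replicate 1 or 3 (0.90 to 1.39), and Sugar transporter protein 2 (Solyc09g075820) by 1.02 ± 0.32 (SE, adjusted p = 0.026), a call lost without WT replicate 1 (0.83) or 2 (0.84) or slpifq replicate 1 (0.96) or 3 (0.89). In slpifq hypocotyls inositol oxygenase was higher (1.07 ± 0.34, SE, adjusted p = 0.0302), lost without WT replicate 1 or 2 or slpifq replicate 2 or 3 (0.89 to 1.07). The light-regulated protein Solyc09g092110 (1.30 ± 0.35, SE, adjusted p = 0.00915) was lost without WT replicate 3 or slpifq replicate 1 (1.12 to 1.12), and Solyc07g054430 (1.44 ± 0.37, SE, adjusted p = 0.00613) was lost without WT replicate 3 (1.23). In slpifq epicotyls Solyc04g050620 was higher (1.23 ± 0.27, SE, adjusted p = 0.00269), and so was Solyc01g049880 (1.02 ± 0.23, SE, adjusted p = 0.00299), lost without WT replicate 1 or slpifq replicate 3 (0.84 to 0.96). Most of these calls in slpifq were thus lost when a single library was left out, some with a fold change that hardly moved. The calls of Solyc04g050625 in cotyledons and hypocotyl, Solyc03g006410 in hypocotyls, Solyc04g050620 in epicotyls and the ribonuclease in first leaves were kept. Solyc07g006630 rose in 24FR in the stem organs of WT at 3 h and of both mutants at 6 h. It was not called between slpifq and WT, at 0.17 in hypocotyls (adjusted p = 0.462) and -0.15 in epicotyls (adjusted p = 0.608, edgeR).

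**Figure D5:**
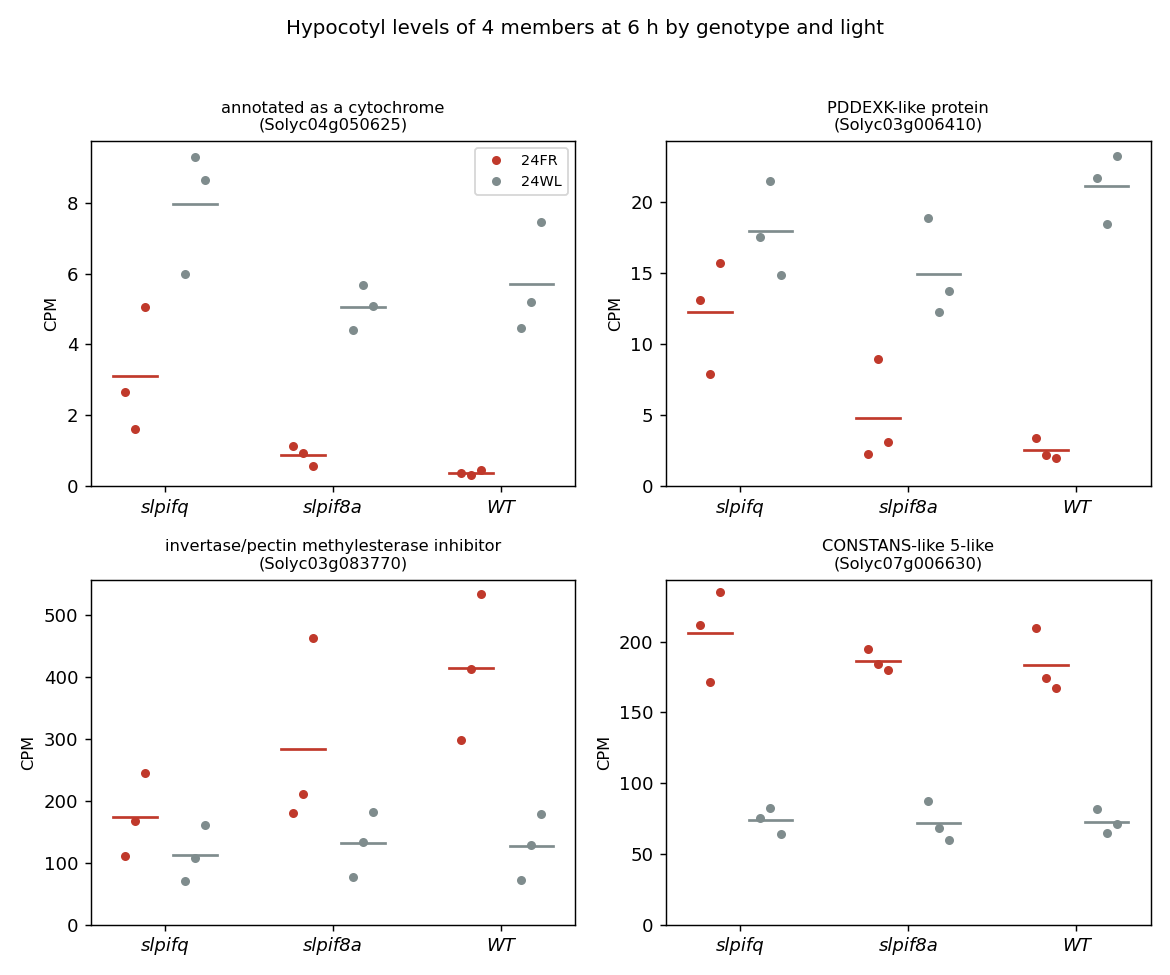
Hypocotyl levels (CPM) of 4 members at 6 h in slpifq, slpif8a and WT, 24FR in red left of 24WL in grey, 1 point per library and a bar at the mean of 3. The 3 slpifq libraries in 24FR lie above the WT libraries for Solyc04g050625 and Solyc03g006410 and below them for Solyc03g083770.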

How the data were processed

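RNA from 4 organs of tomato seedlings was sequenced as single-end stranded reads, with each library made from 4 pooled seedlings. The authors aligned reads to the SL4.0 genome with STAR 2.7.9a and deposited raw counts per gene from HTSeq 0.13.5 (intersection-strict, reverse strand). The authors also deposited a normalised signal per gene, the CPM over effective library sizes from edgeR 3.40.2 after a filter on low genes, which chose the members and gives all levels printed.

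The members and gene lists were chosen with earlier results of these data known. Named genes were the 10 members with the largest smallest difference over organs, members whose description held a keyword of a listed process, up to 2 called members a direction in each comparison, and in addition, after their values were seen, the other called members of the small comparisons. Descriptions came from the supplementary lists of the study, and no identifier matched the RefSeq table (0), so the planned promoter motif search was not run here.

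Counts were tested with edgeR 4.0.16 (R 4.3.3): TMM scaling, genes over 5 CPM in at least 3 libraries, glmQLFit with 1 mean per group over all 72 libraries of a table, glmQLFTest and Benjamini-Hochberg adjustment over the 17469 (time course) or 17460 (genotypes) genes tested. A call needed a log2 fold change over 1 in size with an adjusted p under 0.05, and for organ differences the adjusted p alone. The SE is the log2 fold change over the square root of F. The 5 entries with no gene name held 8.54 to 17.0% of a library and were left out of library sizes. In simulated counts of 17469 genes for 24FR over 24WL at 3 h in cotyledons, 103 of 200 genes changed by 1 on the log2 scale were called with 1 false call, and 199 of 200 changed by 2 with 0 false calls. DESeq2 1.42.0, other size factors, no filter, the organ's libraries alone, a replicate block and single replicates left out were the alternatives, and leaving out 6 members with widely differing replicates was added after seeing the data.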

Additional observations from a re-analysis of the deposited data

Results flagged for a closer look

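The size of the ZT8 over ZT2 difference in 24FR was unlike between organs for part of the members, by a test of the difference of differences (edgeR quasi-likelihood, adjusted over all genes tested). Between first leaves and cotyledons 37 of 126 members passed, 13 with a larger difference in first leaves (8.23% of all genes tested) and 24 with a smaller one (7.88%), among them the 6 antenna genes, all smaller in first leaves. For these 6 the gap was narrower in 24WL, for example 3.73 in cotyledons and 2.39 in first leaves for Solyc02g070950. Between epicotyls and hypocotyls 42 members passed, 16 with a larger difference in epicotyls (18.2% of all genes tested) and 26 with a smaller one (15.9%), so that this count was near the background and is no result about the members. DESeq2 called 40 members between first leaves and cotyledons and 48 between epicotyls and hypocotyls.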

How the results depend on the processing

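The list followed its threshold: 34 genes were taken with 10 CPM added to both means, 298 at a log2 threshold of 1 and 57 at 2, against 126. With 0.1 CPM added 186 genes were taken, and 118 to 139 with 1 replicate number left out. The fitted counts moved by over 1.5 times only where few members were called. DESeq2 called 2 members for 24FR over 24WL at 3 h in cotyledons, against 1. Without a filter on low counts, and likewise with the organ's libraries alone, 2 members were called for slpifq over WT in cotyledons, against 4. With the organ's libraries alone, 2 were called at 3 h in first leaves, against 1, and 1 for the organ difference at 3 h between epicotyls and hypocotyls, against 0.

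No label says that a replicate number marks a shared batch, and the main fit did not take the numbers to pair the libraries. Some same-numbered pairs correlated below 0, which does not exclude a shared batch. Deviations of same-numbered libraries correlated at a mean of 0.0963 (-0.415 to 0.623) in the time course, against -0.0482 for other numbers, with 45 of 72 libraries closest to their own number. Among genotypes the mean was 0.202 (-0.317 to 0.706), against -0.101 for other numbers, with 70.7% of same-numbered pairs over 0.1 and, as a hint from the data and not the design, 60 of 72 libraries closest to their own number. With the replicate number as a block, 3 members were called for 24FR over 24WL at 3 h in cotyledons (against 1), 3 in slpif8a cotyledons (against 1), 1 in slpifq cotyledons (against 0), 5 in slpifq hypocotyls (against 3) and 1 in slpifq first leaves (against 0). Among calls printed above, the block ended those of Solyc12g008650 at 3 h in hypocotyls (-0.994) and of Solyc01g049880 for slpifq over WT in epicotyls (0.995), both then under the fold limit.

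With single replicates left out, 24FR over 24WL at 3 h gave 1 to 6 members in cotyledons, 5 to 10 in hypocotyls and 1 to 2 in first leaves. The response gave 1 to 3 in slpif8a cotyledons, 4 to 9 in slpif8a epicotyls and 0 to 5 in slpifq cotyledons. For slpif8a over WT the range was 0 to 1 in cotyledons and 0 to 1 in epicotyls, and for slpifq over WT 1 to 3 in cotyledons, 2 to 6 in epicotyls and 3 to 6 in hypocotyls. All other counts stayed within 1.5 times, and no direction turned. For named genes, 5398 values under the alternatives kept their call and 235 lost it. Without the 6 members of widely differing replicates, ZT8 over ZT2 in 24FR was called higher for 119, 119, 113 and 116 members in cotyledons, first leaves, hypocotyls and epicotyls, and no count moved by over 1.5 times. For ZT8 over ZT2, 2 members in first leaves and 1 in epicotyls were at 0 in all ZT2 24FR libraries, and with a floor of 3 counts the medians stayed at 3.01 and 2.21. Depth limits members near that floor, such as Solyc04g050625.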
